A study of Mus musculus with 7 samples.

Results

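The set comprised 10 noncoding transcripts, picked by symbol from the 32285 genes counted in nuclei of the posterolateral cortical amygdala (plCoA), because earlier looks at these same nuclei had linked them to subtypes of glutamatergic neurons. They are Gm12536, Gm13481, Gm2164, Gm49171, 9130024F11Rik, Gm34667, Gm34719, 1700018A04Rik, Gm45321 and Gm45323. The plCoA is an olfactory region of the amygdala that receives input from the olfactory bulb. Single-nucleus RNA sequencing was run on tissue microdissected from its anterior (aplCoA) or posterior (pplCoA) domain, from wild-type C57BL/6J male mice aged 8 weeks that carried no transgene or treatment and had been singly housed under sensory deprivation. Each domain had 3 replicates, each a pool of mice, so the spread between replicates was that between pools. The levels by class, by cluster and by co-detection given below were open to the choice of the transcripts and are descriptions, with no test.

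Long noncoding RNAs are transcribed and often spliced like messenger RNAs but do not encode a protein of known function. Many stay in the nucleus, many lie close to or antisense to genes for developmental transcription factors, and in the brain they are often restricted to fewer cell types than coding genes. None of the 10 has a function that can be stated here as background, so each is described by its locus, its neighbours and its level.

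The label of the set held for 6 of the 10 transcripts. Gm12536, Gm13481, 9130024F11Rik, Gm34667, Gm34719 and 1700018A04Rik had their highest level in glutamatergic nuclei by the mean of all replicates, and the other 4 did not. For 1700018A04Rik this came from pplCoA alone, as given with its levels. Gm2164 was highest in oligodendrocyte precursor cells (OPCs), Gm49171 in astrocytes, and Gm45321 and Gm45323 in GABAergic neurons. Within glutamatergic nuclei each of the 10 was unevenly spread over subtypes, as described further on.

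The 7 libraries (2 of them from aplCoA replicate 1, summed) held 50812605 to 129624583 UMIs each, and 46403 nuclei were kept, of which 19880 were glutamatergic, 5009 GABAergic, 9753 astrocytes and 3638 OPCs. Median UMIs per nucleus ranged from 5153 to 6753 over the replicates, and pairs of libraries shared 5 to 37 cell barcodes. Summed markers of glutamatergic neurons reached 986 to 1222 CPM (a gene's share of all UMIs of that class in a replicate, on the usual scale) in each replicate's glutamatergic nuclei, and those of GABAergic neurons 4.14 to 16.7 CPM there against 1174 CPM in GABAergic nuclei. The library of pplCoA replicate 1 stood apart from the others of its domain in its makeup. Its Smoc1 cluster held 2.88% of its glutamatergic nuclei, against 20.4% and 21.4% in the other pplCoA replicates, and its Adarb2 cluster held 10.1%, against 1.68% and 0.852%. The aplCoA replicates varied as well. The Fign cluster held 33.3% of the glutamatergic nuclei of aplCoA replicate 2, against 15.9% and 6.95% in the others. The Reln cluster held 21.4% of those of aplCoA replicate 3, against 9.17% and 9.85%. Domain differences over all glutamatergic nuclei are given with and without pplCoA replicate 1.

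By GENCODE annotation of GRCm38 all 10 are noncoding, and several lie across or beside a gene for a transcription factor or signalling protein. 9130024F11Rik is ENSMUSG00000087022, on chromosome 1. Gm2164 (ENSMUSG00000098760, chromosome 4, 124528924 to 124657169, minus strand) overlaps Pou3f1, a POU-domain transcription factor gene on the opposite strand, whose start lies 362 bases from its own. Gm12536 (ENSMUSG00000085654, chromosome 4, 57300096 to 57307305, plus strand) overlaps Ptpn3, a protein tyrosine phosphatase gene, on the opposite strand, with their starts 1741 bases apart. 1700018A04Rik (ENSMUSG00000038408, chromosome 13, 31565492 to 31625792, minus strand) starts 24 bases from the start of Foxf2 and ends 4.515 kb from Foxq1, both forkhead transcription factor genes. Gm49171 (ENSMUSG00000115704, chromosome 14, 73979158 to 74451303, minus strand) lies 190 kb from Htr2a, the serotonin 2A receptor gene.

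Gm13481, Gm34667, Gm34719, Gm45321 and Gm45323 overlap no coding gene. Gm13481 (ENSMUSG00000086353, chromosome 2, 48062548 to 48457245, minus strand) lies 357 kb from Acvr2a, an activin receptor gene, and further from Zeb2, a zinc finger transcription factor gene. Gm34667 (ENSMUSG00000113063, chromosome 12, 109990882 to 110023873, minus strand) and Gm34719 (ENSMUSG00000113868, chromosome 12, 110046686 to 110086423, minus strand) follow each other on the same strand at a distance of 22.8 kb. They sit between Rtl1 and Dio3, in the imprinted region that also holds the noncoding genes Meg3, Rian and Mirg. Gm45321 (ENSMUSG00000109907, chromosome 8, 49818937 to 49949006, plus strand) and Gm45323 (ENSMUSG00000110375, chromosome 8, 49959483 to 50013384, minus strand) are 10476 bases apart on opposite strands, and their nearest coding gene is Tenm3, a teneurin adhesion protein gene, 975 kb from Gm45321.

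RefSeq windows (GRCm38.p6) of 250 bases before to 50 after a start were held for 6 of the 10 transcripts, and 3 are shown because these transcripts had the same leading cluster, as given below. Capitals mark letters of the TATA box (TATAAA) or of the CCAAT box, on either strand, so that ATTGG is a CCAAT box on the other strand. Of the 32851 windows in the table, 13.6% hold the first motif and 37.4% the CCAAT box. The GC box (GGGCGG), also searched on both strands, is in 35.7% of windows and in none of the 3 shown. The cAMP response element (TGACGTCA), also searched, is in 1.79% of windows and in none of the 6 transcripts' windows. The window of Gm34667 is chr12:110023936-110024235 (minus strand), that of Gm34719 is chr12:110086371-110086670 (minus strand) and that of 1700018A04Rik is chr13:31582464-31582763 (minus strand, inside the GENCODE gene body).
Gm34667: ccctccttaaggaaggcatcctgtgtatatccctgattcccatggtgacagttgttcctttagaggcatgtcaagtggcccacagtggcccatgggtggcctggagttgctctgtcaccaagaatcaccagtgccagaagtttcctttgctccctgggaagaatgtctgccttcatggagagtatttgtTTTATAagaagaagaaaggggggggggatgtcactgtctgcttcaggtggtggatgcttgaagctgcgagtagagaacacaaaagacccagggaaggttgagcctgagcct
Gm34719: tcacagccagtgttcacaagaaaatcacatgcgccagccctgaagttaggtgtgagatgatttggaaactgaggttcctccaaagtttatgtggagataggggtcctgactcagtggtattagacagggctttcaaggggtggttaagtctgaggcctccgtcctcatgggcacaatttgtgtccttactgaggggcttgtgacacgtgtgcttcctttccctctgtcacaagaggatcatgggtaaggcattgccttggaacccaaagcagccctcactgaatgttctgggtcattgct
1700018A04Rik: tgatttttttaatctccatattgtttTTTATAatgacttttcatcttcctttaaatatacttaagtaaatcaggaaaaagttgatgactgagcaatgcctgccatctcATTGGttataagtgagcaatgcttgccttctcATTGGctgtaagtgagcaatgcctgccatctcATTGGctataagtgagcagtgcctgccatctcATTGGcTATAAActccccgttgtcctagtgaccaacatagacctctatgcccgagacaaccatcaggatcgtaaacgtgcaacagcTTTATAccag

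The windows of Gm34667 and Gm34719 had 1 and 3 CpG dinucleotides, against a median of 7 over all windows. The window of 1700018A04Rik held 4 copies of ATTGG. These matches describe letters and are not binding sites.

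The kit primes complementary DNA from poly(A) tails, so the ends of Gm45321 and Gm45323, for which no start window was held, are shown from the GENCODE transcripts, with AATAAA in capitals.
Gm45321: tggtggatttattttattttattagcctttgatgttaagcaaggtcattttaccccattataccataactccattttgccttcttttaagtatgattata
Gm45323: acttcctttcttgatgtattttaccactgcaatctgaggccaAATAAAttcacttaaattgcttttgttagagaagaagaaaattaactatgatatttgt
Neither carries AATAAA or ATTAAA in its last 50 bases. Over the 10 transcripts 2 did, namely 9130024F11Rik and Gm34667, and of 29483 annotated noncoding transcripts 30.6% did. Reads in introns were counted as well, so a level here does not rest on the annotated end alone.

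The 6 transcripts that were highest in glutamatergic nuclei were at or near 0 in most other classes. Gm34719 had 13.5 ± 10.1 CPM (SD, n = 6 replicates) in glutamatergic nuclei and 0.123 ± 0.150 CPM in GABAergic nuclei, with 99.2% of all its UMIs in the former. Gm34667 had 17.8 ± 13.6 CPM against 0.441 ± 0.323 CPM. In microglia, a class that should lack neuronal transcripts, Gm34719 had 0.245 ± 0.289 CPM, so its GABAergic level was no higher than that and is not read as expression.

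9130024F11Rik had 5.12 ± 1.79 CPM (SD, n = 6) in glutamatergic nuclei and 0.279 ± 0.205 CPM in GABAergic nuclei, and its next class, mature oligodendrocytes, had 1.34 ± 2.04 CPM. Gm13481 had 34.7 ± 20.0 CPM in glutamatergic nuclei, 5.92 ± 2.39 CPM in OPCs and 1.33 ± 0.533 CPM in GABAergic nuclei. Its OPC level was above that of microglia, 0.625 ± 0.702 CPM.

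A second class stood above background for Gm12536 and 1700018A04Rik. Gm12536 had 33.5 ± 9.09 CPM (SD, n = 6) in glutamatergic nuclei and 16.9 ± 5.86 CPM in arachnoid barrier cells (ABCs), a meningeal cell type, from 64 UMIs. Ptpn3, which it overlaps, showed the same pair of classes, with 114 ± 19.5 and 95.5 ± 28.6 CPM. 1700018A04Rik had 0.327 to 26.6 CPM in glutamatergic nuclei and 4.87 ± 1.67 CPM in vascular leptomeningeal cells (VLMCs), meningeal fibroblasts. In aplCoA it had 4.61, 2.44 and 5.17 CPM in VLMCs and 2.90, 0.327 and 2.25 CPM in glutamatergic nuclei, so VLMCs were the higher class in all 3 replicates there, and in pplCoA it was lower in VLMCs in all 3. Its neighbour Foxf2 had 4.03 ± 1.42 CPM in VLMCs.

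Gm2164 was an OPC transcript by level. It had 538 ± 107 CPM (SD, n = 6) in OPCs, where 77.8 ± 4.59% of nuclei had a UMI of it, and 29.0 ± 8.99 CPM in glutamatergic nuclei, where 20.0 ± 5.93% had one. With each nucleus thinned to 2000 UMIs the shares were 59.1 ± 5.78% and 4.79 ± 1.51%, since median depth was 3949.5 UMIs in OPCs and 12277.5 in glutamatergic nuclei, and in microglia 0.0613 ± 0.0721% of nuclei had one. Pou3f1, which it overlaps, followed the same order, with 113 ± 21.9 CPM in OPCs, 2.93 ± 1.24 CPM in glutamatergic and 1.11 ± 0.536 CPM in GABAergic nuclei. 4933407E24Rik, a noncoding gene that also overlaps Gm2164 and was named after its values were seen, had 25.9 ± 10.6, 3.13 ± 0.748 and 0.0783 ± 0.137 CPM. How far reads of genes that overlap on opposite strands enter each other's counts was not tested.

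Gm49171 was highest in astrocytes, at 149 ± 30.3 CPM (SD, n = 6), then in glutamatergic nuclei, at 53.1 ± 22.3 CPM, and next in Cajal-Retzius and GABAergic nuclei, at 21.4 ± 13.6 and 21.4 ± 4.48 CPM. The ranges of astrocytes and glutamatergic nuclei did not overlap, with 109 CPM as the lowest astrocyte replicate and 85.7 CPM as the highest glutamatergic one. Htr2a, its nearest coding neighbour on the higher side, had another order, with 51.5 ± 6.89 CPM in GABAergic nuclei, 16.2 ± 4.54 CPM in glutamatergic nuclei and 1.15 ± 0.638 CPM in astrocytes.

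Gm45321 and Gm45323 were GABAergic transcripts by level. Gm45321 had 371 ± 89.1 CPM (SD, n = 6) in GABAergic nuclei, 78.7 ± 51.4 CPM in Cajal-Retzius nuclei, 65.9 ± 33.2 CPM in glutamatergic nuclei and 55.1 ± 16.4 CPM in OPCs, and these last 3 classes overlapped. Gm45323 had 144 ± 26.7, 25.7 ± 20.3, 32.3 ± 18.7 and 24.2 ± 4.71 CPM in the same classes. Of GABAergic nuclei 49.4 ± 5.59% had a UMI of Gm45321, and 22.7 ± 7.46% of glutamatergic ones did although these were sequenced deeper. Tenm3 shared the OPC and neuronal classes with them but not astrocytes, where Tenm3 had 1033 ± 92.2 CPM, Gm45321 2.21 ± 1.08 CPM and Gm45323 1.19 ± 0.511 CPM.

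**Figure D1:**
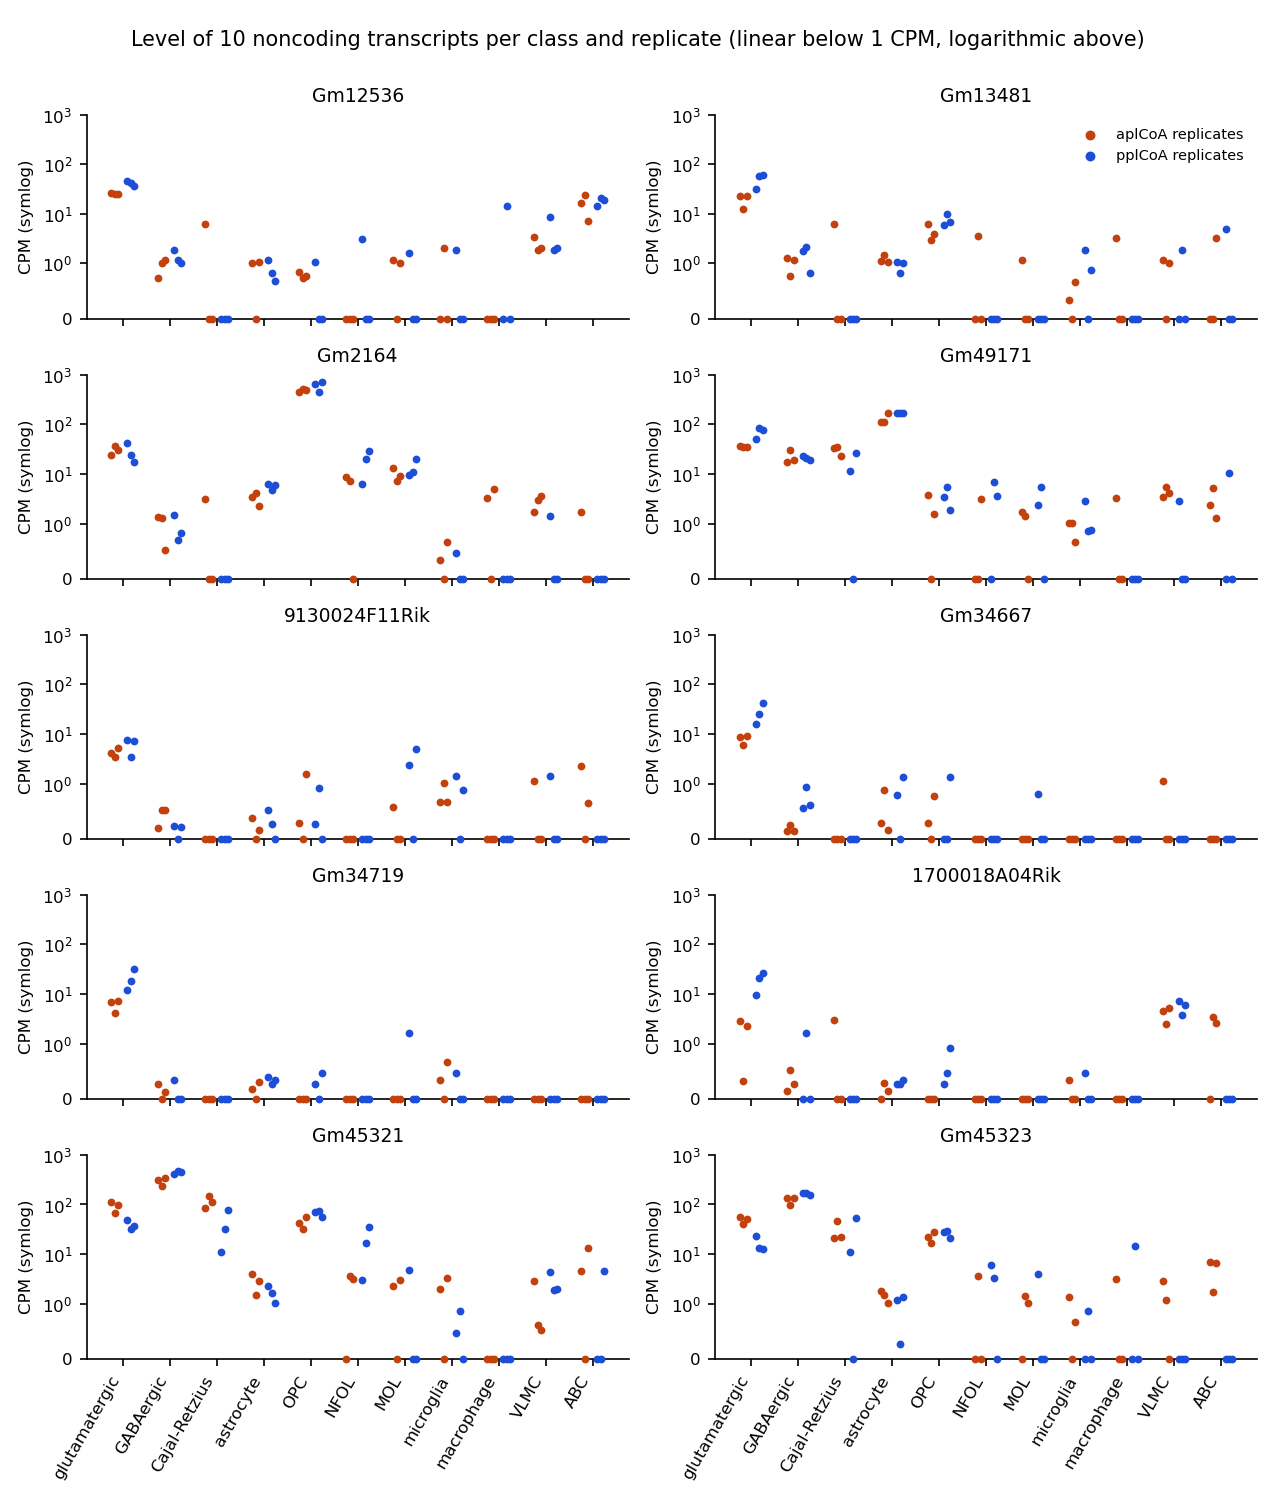
Level of each of the 10 transcripts (vertical axis, CPM, linear below 1 and logarithmic above) in the cell classes (horizontal axis). Points are the 6 replicates, coloured by domain. Gm2164 peaks in OPCs at 538 CPM, Gm49171 in astrocytes at 149 CPM, and Gm45321 and Gm45323 in GABAergic nuclei at 371 and 144 CPM, whereas the other 6 peak in glutamatergic nuclei.

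RNA outside nuclei carried all 10 transcripts, at 3.99 ± 1.66 CPM (9130024F11Rik) to 69.3 ± 39.8 CPM (Gm45321) in barcodes under 100 UMIs. In microglia no mean passed 1.20 CPM. Gm2164 had 0.245 ± 0.289 CPM there and 1.02 ± 0.385 CPM in GABAergic nuclei. The 2 libraries of aplCoA replicate 1 had overlapping 95% Poisson intervals (counting error only) in glutamatergic nuclei for 4 of the 10 transcripts. Gm45321, for example, had 120 CPM in the first (118 to 123) and 97.5 CPM in the other (93.8 to 101).

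Glutamatergic nuclei were clustered without the 10 transcripts and without genes that differed between domains, which gave 9 clusters of at least 100 nuclei. They are named here by number and one of their leading genes: 1 (Zfp536), 2 (Gpc6), 3 (Adarb2), 4 (Reln), 5 (Meis1), 6 (Fign), 7 (Smoc1), 8 (Prox1) and 9 (Grik3). The paper placed its Etv1 subtype in the posterior basomedial amygdala and its Fign subtype likely in the cortex-amygdala transition area, both beside plCoA. Etv1 was a leading gene of cluster 9 and Fign of cluster 6, so these may hold nuclei of adjacent tissue, which was not tested. The domains filled the clusters unevenly, with 85.9%, 92.8% and 95.4% of the nuclei of clusters 3, 5 and 6 from aplCoA and 2.29% of those of cluster 7. The transcripts fell into 3 patterns over the clusters, led by cluster 1, by cluster 2 or 7, and by clusters 3 and 5.

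Cluster 1, whose leading gene Zfp536 encodes a zinc finger protein, held most of the glutamatergic UMIs of 4 transcripts. Gm12536 had 67.5 ± 15.8 CPM there (SD, n = 6; 39.5 to 88.5), with 56.0% of its glutamatergic UMIs in 22.1% of the nuclei, and 38.0 ± 9.61 CPM (n = 4 replicates with enough nuclei) in the next cluster, 6. Gm13481 had 62.9 ± 35.9 CPM in cluster 1 and 37.3 ± 19.4 CPM in cluster 4, so these neighbours in its order did not differ beyond their spread. Gm49171 was the most concentrated of the 4, with 67.7% of its glutamatergic UMIs in cluster 1, where it had 121 ± 55.3 CPM against 50.4 ± 4.64 CPM (n = 4) in cluster 6. Gm2164 was as high in cluster 8 (67.5 ± 17.1 CPM) as in cluster 1 (73.7 ± 34.9 CPM), with cluster 6 lower at 22.8 ± 7.66 CPM (n = 4).

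Cluster 2 or 7 led for each of the next 4 transcripts. Among these clusters 9130024F11Rik was nearly restricted to cluster 2, with 23.7 CPM over the pooled nuclei and 77.2% of its glutamatergic UMIs, and its next cluster, 3, had 4.35 CPM. Gm34667 had 108 ± 48.5 CPM (SD, n = 4) in cluster 7 and 43.8 ± 17.9 CPM (n = 6) in cluster 2, and Gm34719 had 79.7 ± 37.3 and 37.3 ± 12.8 CPM. The ranges of the pair in clusters 7 and 2 overlapped, 56.2 to 172 against 24.1 to 76.4 CPM for Gm34667. 1700018A04Rik also led in cluster 7, with 76.9 CPM over the pooled nuclei and 45.4% of its glutamatergic UMIs, and had 19.5 CPM in cluster 2.

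Gm45321 and Gm45323 led in clusters 5, 3 and 9. Over the 9 clusters they correlated negatively with Gm12536 (-0.87 and -0.85) and Gm2164 (-0.77 and -0.74), and more weakly with Gm49171 (-0.38 and -0.30) and Gm13481 (-0.22 and -0.25). Gm45321 had 317 ± 49.7 CPM (SD, n = 4) in cluster 5, 231 ± 61.0 CPM (n = 5) in cluster 3 and 208 ± 25.9 CPM (n = 4) in cluster 9. Cluster 3 overlapped with both of the others, whereas every replicate of cluster 5 (272 CPM or more) was above every one of cluster 9 (at most 244 CPM). It had 4.90 CPM over the pooled nuclei of its lowest cluster, 6. Gm45323 had 156 ± 18.3, 122 ± 32.6 and 94.1 ± 11.1 CPM in the same 3 clusters. Cluster 5, the Slc17a6 cluster with the TALE homeobox gene Meis1 as leading gene, thus reached levels of the pair near those of GABAergic nuclei.

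**Figure D2:**
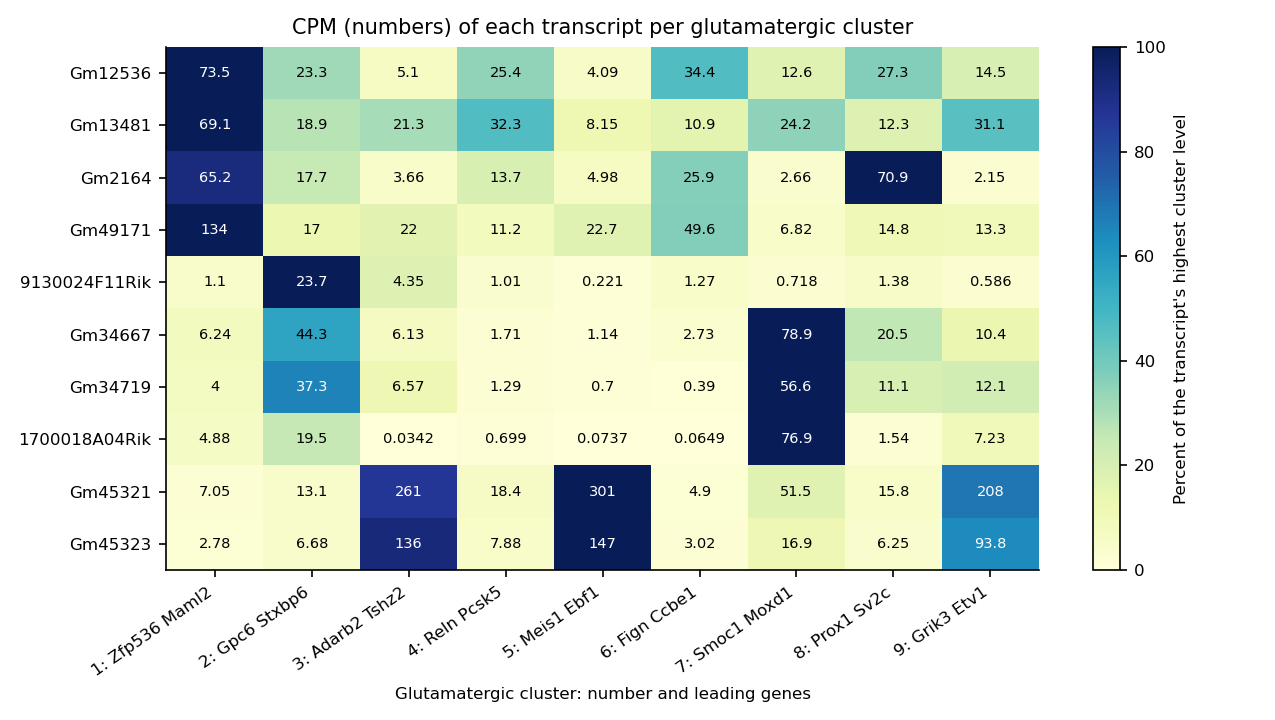
Level of each transcript (rows) in each glutamatergic cluster of at least 100 nuclei (columns, named by number and leading genes), as CPM over the pooled nuclei of the cluster. Cluster 1 leads for Gm12536, Gm13481 and Gm49171, and cluster 8 with cluster 1 for Gm2164. Cluster 2 leads for 9130024F11Rik, clusters 7 and 2 for Gm34667, Gm34719 and 1700018A04Rik, and clusters 5 and 3 for Gm45321 and Gm45323.

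Across the 9 clusters, which share libraries and differ in depth, Gm34667 and Gm34719 had a Pearson correlation of log2(CPM + 10) of 0.98, and Gm45321 and Gm45323 one of 0.99. 1700018A04Rik correlated with the first pair at 0.90 and 0.91. The genes not named Gm or Rik with the most similar pattern included Sik2 (0.89) and Map4k3 (0.86) for 9130024F11Rik, and were Cdc40 (0.97), Igf1r (0.97) and Ptpn3 (0.96) for Gm12536. They were Mttp, Rev3l and Rchy1 (each 0.98) for Gm45321, Arhgap35 (0.99), Rev3l (0.99) and Ptpdc1 (0.98) for Gm45323, Rnf169 (0.95), Drc3 (0.93) and Zfp407 (0.91) for Gm34667, and Slc26a4 (0.92), Rnf169 (0.92) and Drc3 (0.90) for Gm34719. For 1700018A04Rik they were Cmtm4 (0.94), Ahcyl2 (0.93) and Unc5a (0.91), for Gm2164 Tmem191c (0.93), Pdzd2 (0.93) and Agap2 (0.92), for Gm13481 Nup214 (0.84), Angptl2 (0.84) and Lncppara (0.80), and for Gm49171 Abhd12 (0.87), Susd6 (0.83) and Arhgap5 (0.82). Ptpn3, which Gm12536 overlaps on the opposite strand, was thus among the 3 genes most similar to it.

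Co-detection compared, in each replicate, a transcript's CPM in glutamatergic nuclei with and without a UMI of each of 33 coding subtype genes, and a transcript was called tied to a gene where the ratio was at least 3 in every replicate with 20 or more nuclei on each side. By that measure 7 of the 10 were tied to at least 1 coding gene, and the ties of 6 are described here. The number of tied transcripts was 4 when nuclei were thinned to 5000 UMIs, of which 1700018A04Rik and Gm13481 counted only through Fezf2 (named after its values were seen) in the 1 replicate with enough nuclei, and 8 without pplCoA replicate 1 or without pplCoA replicate 2.

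Gm34667 was tied to Trhr, the thyrotropin-releasing hormone receptor gene, at 4.68 to 7.14 with a median of 5.68, and to Cyp19a1, the aromatase gene, at 3.36 to 5.61. Gm34719 was tied to Trhr at 4.10 to 6.30 and had 2.88 to 6.06 with Cyp19a1. 1700018A04Rik was tied to Trhr at 3.53 to 5.98. With Grik3 its median ratio was 3.36, but it ranged from 1.48 to 9.26 and was no tie. The ratios of 9130024F11Rik with Ntng1 (median 3.31) and Grik3 (2.81) did not reach 3 in every replicate.

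Gm2164 was tied to Zfp536 at 3.96 to 5.43 with a median of 4.33. Gm45321 and Gm45323 were tied to Meis1, at 3.13 to 7.39 and 3.18 to 7.75. They were not tied to the next genes, Slc17a6, the gene of the vesicular glutamate transporter VGluT2 (medians 4.06 and 4.40, lowest replicates 1.65 and 1.87), and Gulp1 (medians 3.98 and 4.22, lowest replicates 2.69 and just under 3). Of all these ties only that of Gm34667 with Trhr held when nuclei were thinned to 5000 UMIs (lowest replicate 3.09). The lowest replicate was then 2.84 for Gm34667 with Cyp19a1, 2.63 for Gm34719 and 0.630 for 1700018A04Rik with Trhr, 2.92 for Gm2164 with Zfp536, and 2.80 and 2.63 for Gm45321 and Gm45323 with Meis1. With at least 2 UMIs of the coding gene asked, 1700018A04Rik was no longer tied to Trhr (lowest replicate 2.16). Not tied were Gm12536 (Zfp536, median 3.30, 2.76 to 3.88; then Slc17a7 and Rorb), Gm13481 (Ror1, 3.62, with 2 replicates under 3; then Pcsk5 and Bcl11b) and Gm49171 (Zfp536, 3.82, 1.54 to 7.08; then Ror1). Sim1 ranked next for Gm2164, and after Ror1 for Gm49171, but only 2 replicates had enough Sim1 nuclei.

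**Figure D3:**
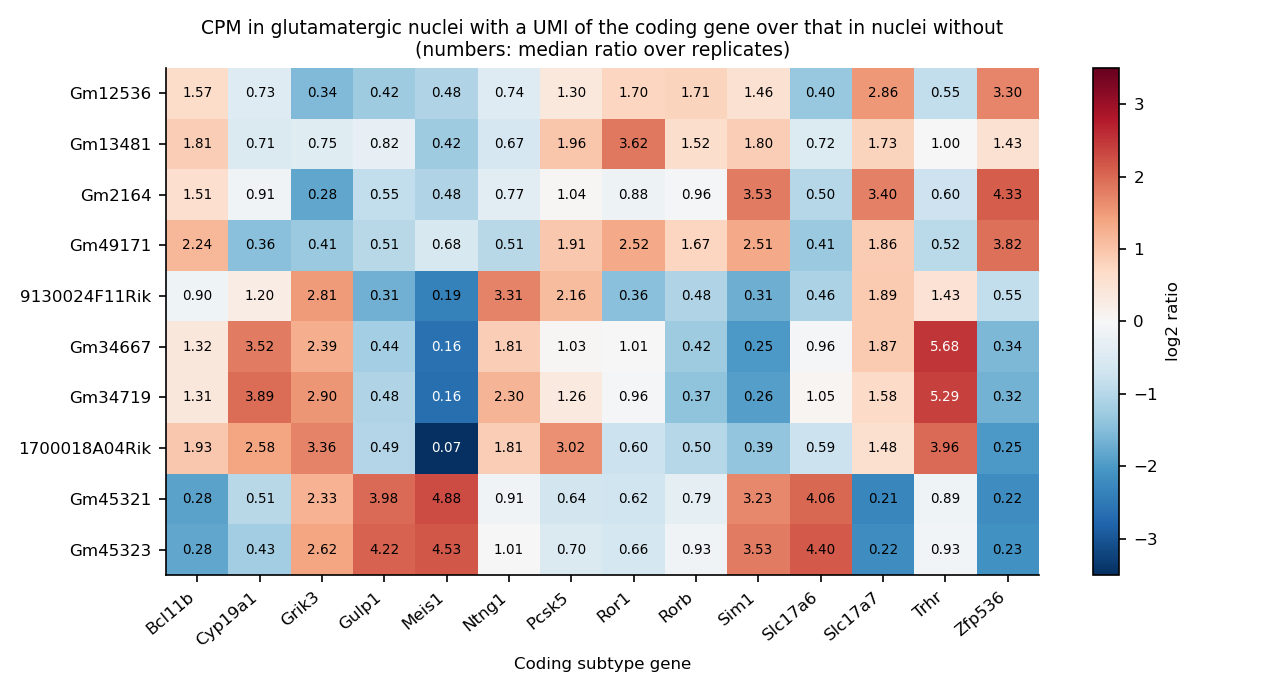
Median over replicates of the ratio of a transcript's CPM in glutamatergic nuclei with a UMI of a coding subtype gene (columns) to that in nuclei without one, on a log2 colour scale with the ratio written in each cell. Trhr has a median of 5.68 with Gm34667, and Meis1 gives 4.88 and 4.53 with Gm45321 and Gm45323.

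The transcripts of a genomic pair were detected in the same nuclei more often still. Gm34667 was 15.4 times as high (median over replicates, 7.97 to 22.2) in nuclei with a UMI of Gm34719, and Gm34719 18.6 times as high (7.78 to 27.5) in nuclei with one of Gm34667. Gm45321 was 15.1 times as high (10.3 to 22.8) in nuclei with Gm45323, and 19.4 (14.7 to 32.3) was the ratio the other way. 1700018A04Rik, from another chromosome, had a ratio of 3.74 in nuclei with Gm34667 and 4.53 in those with Gm34719.

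Neighbouring coding genes gave ratios from about none to above those of the subtype genes. Gm45321 and Gm45323 were 15.0 (3.35 to 26.3) and 16.4 (5.03 to 30.1) times as high in nuclei with Tenm3. Gm49171 was 5.43 times as high (3.72 to 5.89) with Htr2a, Gm2164 3.91 times (3.12 to 7.91) with Pou3f1, 1700018A04Rik 4.57 times (3.38 to 9.12, 5 replicates) with Foxq1, and Gm12536 2.49 times (2.23 to 3.08) with Ptpn3. Gm11377, a noncoding gene that overlaps 1700018A04Rik on the other strand and was named after its values were seen, gave 7.59 (4.67 to 16.8, 4 replicates). Rtl1, next to Gm34667 and Gm34719, gave 1.04 and 1.03, and Dio3 had enough positive nuclei in 2 replicates only.

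Levels per replicate of each domain in glutamatergic nuclei were among the values that chose the transcripts, so their differences there are descriptions, given with no p-value. At an adjusted p under 0.05 edgeR's quasi-likelihood test called 6 of the 10 as lower and 2 as higher in aplCoA. Of all 18814 genes tested in these nuclei 16.4% were called, 7.96% as higher and 8.4% as lower in aplCoA. Nothing is read from the count of transcripts. For 8 of the 10 the levels of the domains were fully separate, as for 38% of all genes. With library size as the only scaling the calls over all genes were 2194 higher and 1102 lower in aplCoA, against 1498 and 1581 with TMM scaling, while 8 of the 10 transcripts were called under either. Clusters 3, 5 and 6 came mostly from aplCoA and cluster 7 mostly from pplCoA, and cluster 1 took 31.0% to 39.9% of the nuclei of each pplCoA replicate against 11.4% to 16.0% in aplCoA, so these levels combine the shares of clusters with the level inside each.

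1700018A04Rik had the largest difference. Its aplCoA replicates had 2.90, 0.327 and 2.25 CPM and its pplCoA replicates 9.77, 21.4 and 26.6 CPM, a log2 fold change (aplCoA over pplCoA) of -3.32 (SE 0.48). All pplCoA replicates were above all aplCoA ones, and pplCoA replicate 1 was the lowest of its domain. Its neighbours moved the same way, Foxq1 at -2.08 (edgeR adjusted p = 0.00688), Foxf2 at -2.05 (0.0212) and the overlapping Gm11377 at -3.72 (0.00436), at levels of at most 5.89 CPM in any replicate.

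Gm34667 had 8.53, 5.93 and 9.21 CPM in aplCoA and 16.1, 25.2 and 41.7 CPM in pplCoA, a log2 fold change of -1.87 (SE 0.30). Gm34719 had 7.04, 4.21 and 7.37 CPM against 12.3, 18.5 and 31.4 CPM, at -1.79 (SE 0.31). For both, pplCoA replicate 1 was again the lowest of its domain and still above every aplCoA replicate. Of 5 other genes of the region none was called as lower in aplCoA. Rtl1 was at 0.06 (edgeR adjusted p = 0.818), Dio3, which reached at most 1.17 CPM in any cluster, at -0.87 (0.294), Meg3 at 0.19 (0.232), Rian at 0.19 (0.138) and Mirg at 0.31 (0.0217), the last called as higher in aplCoA.

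Gm13481 had 22.8, 12.3 and 23.3 CPM in aplCoA and 31.2, 57.8 and 60.8 CPM in pplCoA (log2 fold change -1.43, SE 0.27). Gm49171 had 37.2, 34.1 and 35.3 CPM against 51.4, 85.7 and 75.1 CPM (-1.08, SE 0.16). Gm12536 had 26.2, 25.5 and 24.9 CPM against 45.0, 42.3 and 36.9 CPM (-0.79, SE 0.087). The groups did not overlap in any of the 3, and the aplCoA replicates of Gm12536 and Gm49171 were nearly equal. Ptpn3 was also lower in aplCoA (-0.53, edgeR adjusted p = 0.00298) and so was Acvr2a (-0.55, 0.0183), whereas Htr2a was higher in aplCoA (0.61, 0.0106) while its neighbour Gm49171 was lower.

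Gm45321 and Gm45323 were the transcripts that were higher in aplCoA. Gm45321 had 113, 68.7 and 96.4 CPM in aplCoA and 48.4, 32.1 and 36.5 CPM in pplCoA (log2 fold change 1.16, SE 0.17). Gm45323 had 55.2, 39.6 and 50.5 CPM against 23.1, 13.2 and 12.5 CPM (1.48, SE 0.21). In both the groups did not overlap, and pplCoA replicate 1 was the highest of its domain. Tenm3 was higher in aplCoA too (1.09, edgeR adjusted p = 0.00252).

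Gm2164 and 9130024F11Rik overlapped between the domains. Gm2164 had 24.4, 36.6 and 29.9 CPM in aplCoA and 41.8, 23.7 and 17.5 CPM in pplCoA, with the highest and the lowest replicate both from pplCoA (log2 fold change 0.03, SE 0.27). 9130024F11Rik had 4.12, 3.48 and 5.24 CPM against 7.44, 3.37 and 7.10 CPM (-0.56, SE 0.27), and it was at -0.84 without pplCoA replicate 2, the lowest of all.

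Without pplCoA replicate 1 each of the 10 kept its direction. The log2 fold changes were then -3.63 for 1700018A04Rik, -2.15 for Gm34667, -2.06 for Gm34719, -1.68 for Gm13481, -1.27 for Gm49171 and -0.72 for Gm12536, and 1.35 for Gm45321 and 1.83 for Gm45323. Of these 8 all but that of Gm12536 were larger in size than with the replicate. Gm2164 was at 0.46 and 9130024F11Rik at -0.35.

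**Figure D4:**
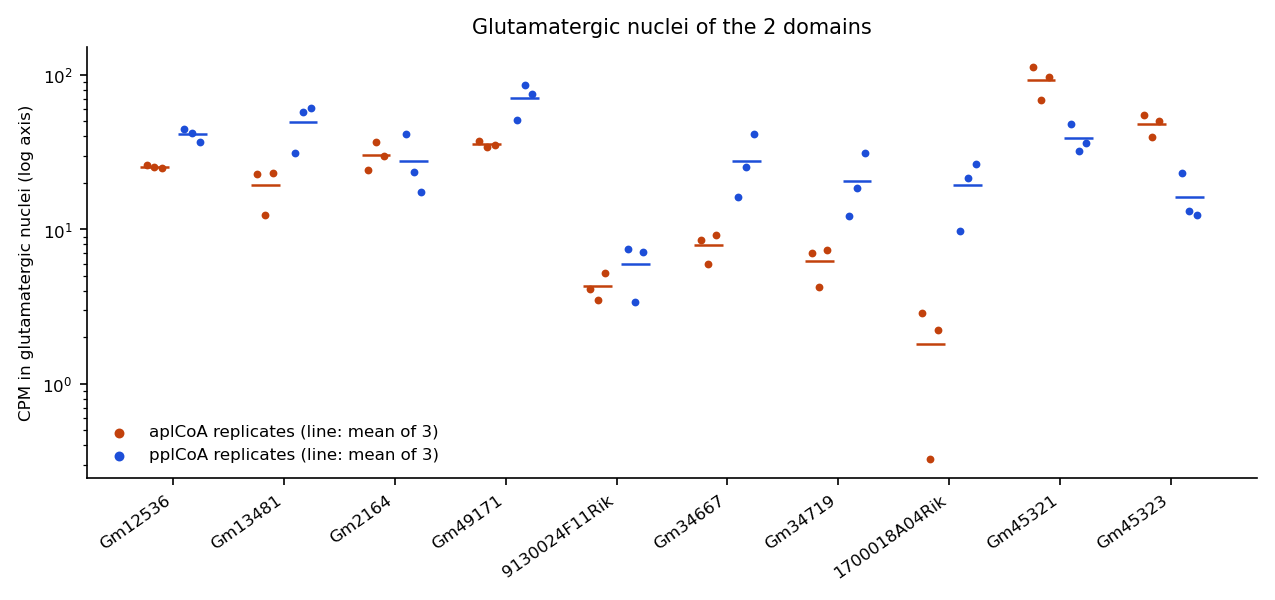
Level of each transcript in glutamatergic nuclei (vertical axis, CPM, logarithmic) for the 3 aplCoA and 3 pplCoA replicates (points) with the mean of each domain (lines). The aplCoA points lie below all pplCoA points for 6 transcripts and above them for Gm45321 and Gm45323, and the domains overlap for Gm2164 and 9130024F11Rik.

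Lists of genes gave a setting for these values. The list of genes named Gm or Rik was made by symbol, so it holds the 10 transcripts and is not limited to noncoding genes. Of its 4298 tested genes, 799 (18.6%) were called, 152 as higher and 647 as lower in aplCoA, with a median log2 fold change of -0.16. Of 13 known brain noncoding genes 4 were called, namely Mirg, Peg13 (0.76) and Pantr1 (1.87) as higher and Miat (-0.34) as lower in aplCoA. Of the 33 coding subtype genes 22 were called, 12 as higher and 10 as lower.

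Measures of the glutamatergic nuclei themselves also differed between domains. Median mitochondrial shares were 0.0144% to 0.0204% in aplCoA and 0.00824% to 0.0111% in pplCoA replicates, and ribosomal shares 0.253% or more against 0.195% to 0.219%. The summed level of 4 GABAergic markers, all detected, was 9.53 to 16.7 CPM in aplCoA and 4.14 to 9.51 CPM in pplCoA, 0.926% of their level in GABAergic nuclei over all replicates, and 4 of 4 were higher in aplCoA, while Gm45321 in glutamatergic aplCoA nuclei stood at 92.8 ± 22.5 CPM (SD, n = 3) against 298 ± 54.3 CPM in GABAergic ones. VLMC markers were at 4.22 to 6.72 CPM in aplCoA and 8.31 to 20.6 CPM in pplCoA, 0.483% of the VLMC level, although 3 of the 5 markers were higher in aplCoA, and none was at 0. The markers higher in pplCoA were Dcn (0.914 against 8.10 CPM) and Col1a1 (2.01 against 4.82 CPM). Dcn was also a leading gene of glutamatergic cluster 7, which came mostly from pplCoA. The part of these measures in the results was not tested. Fewer nuclei with a transcript and less RNA of it per nucleus cannot be told apart in summed counts.

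The differences inside single clusters come from the same nuclei and are likewise descriptions. Clusters 1, 2, 4 and 8 had at least 30 nuclei in every replicate, and of 34 transcript and cluster pairs tested 0 were called by edgeR's quasi-likelihood test. Of the pairs 17 had an unadjusted p under 0.05, as had 14.2% of all gene and cluster pairs, and edgeR's likelihood ratio test called 9, and 4.42% of all pairs. Of all genes 0.751%, 0.0917%, 0.889% and 0.0388% were called by the quasi-likelihood test in clusters 1, 2, 4 and 8. Without pplCoA replicate 1 that test called 10 of the transcript pairs, 8 lower and 2 higher in aplCoA, and 4.41% of all gene and cluster pairs, 2.9% lower and 1.51% higher. Nothing is read from any of these counts of transcript pairs, since values of these nuclei chose the transcripts.

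Several of these within-cluster differences had the direction seen over all glutamatergic nuclei. Gm13481 was at -1.02, -0.71 and -1.06 in clusters 1, 2 and 4, against -1.43 over all. In cluster 4 it had 26.4, 17.6 and 25.7 CPM in aplCoA and 30.3, 61.7 and 62.0 CPM in pplCoA, with no overlap, and without pplCoA replicate 1 it was at -1.39. Gm49171 in cluster 4 had 9.78, 6.55 and 5.08 CPM against 7.96, 23.9 and 36.9 CPM, which overlapped, at -1.56, and at -2.13 without pplCoA replicate 1. In cluster 1 it had 105, 31.7 and 110 CPM against 119, 180 and 180 CPM, with no overlap. Its mean in cluster 8 was higher in aplCoA (15.9 against 11.4 CPM). So were the means of Gm12536 in clusters 2 (26.1 against 21.4 CPM) and 8 (29.9 against 23.3 CPM), and in these 3 cases the domains overlapped. 1700018A04Rik, at -3.32 over all, had smaller differences inside clusters 1 and 2. In cluster 1 it had 3.33, 0.711 and 0.138 CPM in aplCoA and 3.05, 6.96 and 11.7 CPM in pplCoA (-1.94), which overlapped, and in cluster 2 18.1, 1.31 and 12.6 CPM against 23.7, 24.5 and 21.1 CPM (-0.89), which did not. Gm45321 and Gm45323 were at 0.92 and 0.88 in cluster 4, in the direction seen over all nuclei, but the other clusters did not share it evenly. Gm45321 was at -0.25, -0.51 and 0.05 in clusters 1, 2 and 8, with mean levels of 6.14, 11.4 and 13.9 CPM in aplCoA and 7.70, 15.3 and 18.2 CPM in pplCoA. Gm45323 was at 0.71, 0.09 and 0.09 there, with the lower mean in aplCoA in cluster 8 (5.52 against 7.32 CPM). In these 3 clusters the domains overlapped for both.

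Gm2164 differed from the pattern over all nuclei. In cluster 1 it had 69.5, 125 and 96.8 CPM in aplCoA and 79.7, 39.4 and 32.1 CPM in pplCoA (0.86), and in cluster 2 17.7, 54.2 and 23.8 CPM against 16.7, 11.6 and 7.47 CPM (1.19), where the groups did not overlap. Without pplCoA replicate 1 the value in cluster 1 was 1.36. Gm34667 and Gm34719 in cluster 2 ranged from 24.1 to 39.6 and from 25.8 to 33.9 CPM in aplCoA and from 34.9 to 76.4 and from 29.3 to 60.8 CPM in pplCoA. Clusters 3 and 5 did not have 30 nuclei in every replicate, so the domains were not tested there. In cluster 3 Gm45321 had 277, 182 and 257 CPM in aplCoA and 289 and 152 CPM in pplCoA replicates 1 and 2, and Gm45323 had 137, 114 and 143 CPM against 148 and 68.9 CPM, so that the domains overlapped for both. In cluster 5, where only pplCoA replicate 1 had enough nuclei, Gm45321 had 384 CPM in it and 272 to 324 CPM in aplCoA.

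In GABAergic nuclei the domain difference of Gm45321 and Gm45323 ran the other way. Gm45321 had 311, 238 and 344 CPM in aplCoA and 415, 470 and 448 CPM in pplCoA (log2 fold change -0.63, SE 0.10, edgeR adjusted p = 0.00230). Gm45323 had 132, 99.6 and 138 CPM against 168, 171 and 154 CPM (-0.46, SE 0.099, edgeR adjusted p = 0.00889). In both, every pplCoA replicate was above every aplCoA one. These were 2 of the 3 transcripts with enough counts to be tested there, where 7.21% of all genes were called and 4.21% as lower in aplCoA. Gm49171, the third, was at -0.09 (edgeR adjusted p = 0.849). The rule that chose the transcripts used levels per class and per replicate of each domain. The p-values of this class are thus descriptions, and nothing is read from the calls. No GABAergic cluster was tested between domains, so shares of GABAergic subtypes and the level inside each cannot be told apart here.

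The domain effect in GABAergic minus that in glutamatergic nuclei was fitted with edgeR. Its glutamatergic side was among the values that chose the transcripts, so it too is a description with no p-value. It was -1.82 for Gm45321 (SE 0.16) and -2.00 for Gm45323 (SE 0.17). Both were past the threshold, as were 3.29% of all genes, and nothing is read from that. With any replicate left out the 2 values stayed between -2.04 and -1.66 and between -2.29 and -1.85. Gm49171 was at 0.85, and at 1.19 without pplCoA replicate 1.

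OPCs were fitted after the class levels had been seen, so the p-values there are descriptions and nothing is read from a call. There Gm45321 had 42.8, 32.0 and 55.0 CPM in aplCoA and 70.7, 75.5 and 54.7 CPM in pplCoA, which overlapped at the edge (-0.65, SE 0.15, edgeR adjusted p = 0.0119). It was the only one of 4 tested transcripts to be called, where 4.37% of all genes were, and it lost the call without aplCoA replicate 1 (edgeR adjusted p = 0.121), aplCoA replicate 2 (0.0697) or pplCoA replicate 2 (0.0862). Gm2164, so high in OPCs, had 456, 505 and 489 CPM in aplCoA and 633, 437 and 706 CPM in pplCoA (-0.35, SE 0.12, edgeR adjusted p = 0.101), with pplCoA replicate 2 the lowest of all. Without that replicate it passed (edgeR adjusted p = 0.0125). Gm45323 had 22.1, 17.1 and 28.1 CPM in aplCoA and 27.4, 29.2 and 21.6 CPM in pplCoA, which overlapped (-0.24, SE 0.19, edgeR adjusted p = 0.586). The domain effect in OPCs minus that in glutamatergic nuclei, a description for the same reason, was -1.89 for Gm45321 and -1.77 for Gm45323. Both were past the threshold, as were 2.29% of all genes, and nothing is read from that. Most of the value of Gm45323 is its glutamatergic difference of 1.48.

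In astrocytes, fitted for the same reason, Gm49171 had 109, 110 and 167 CPM in aplCoA and 170, 165 and 170 CPM in pplCoA (-0.44, SE 0.15, edgeR adjusted p = 0.249). Its pplCoA replicates were nearly equal, and aplCoA replicate 3 sat with them. The domain effect in astrocytes minus that in glutamatergic nuclei called 0.529% of all genes and none of the transcripts. Inside astrocytes none of the 3 transcripts tested was called by edgeR, where 0.394% of all genes were. With the replicate block Gm49171 passed there (edgeR adjusted p = 0.0237). As in OPCs, these p-values are descriptions and nothing is read from a call.

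**Figure D5:**
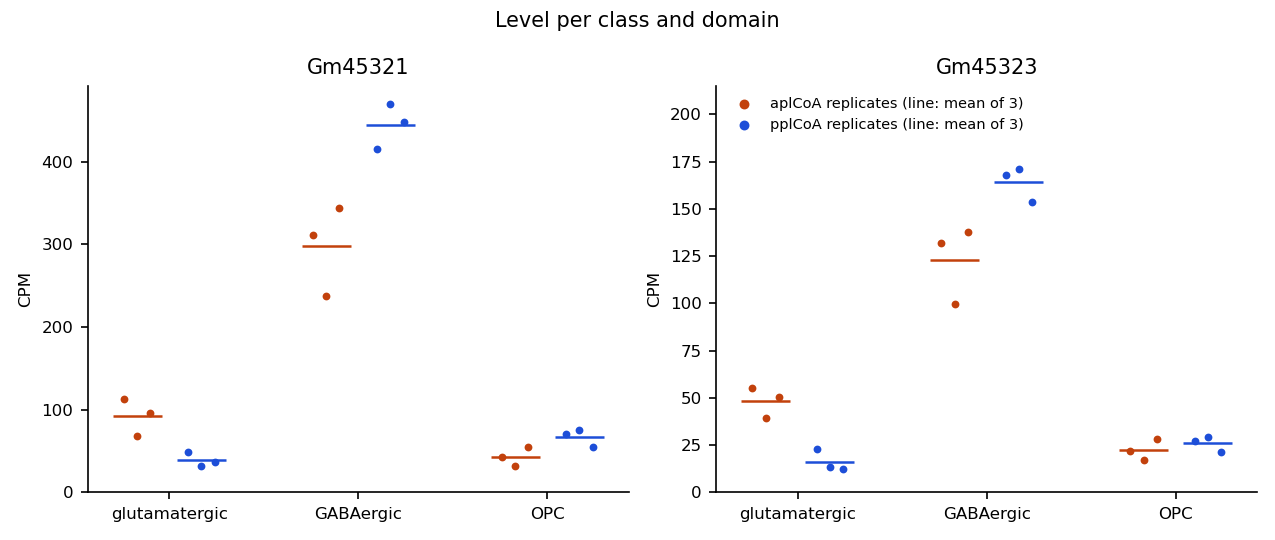
Level of Gm45321 and Gm45323 (vertical axis, CPM, from 0) in glutamatergic nuclei, GABAergic nuclei and OPCs, with the 3 replicates of each domain as points and their mean as a line. In glutamatergic nuclei the aplCoA points are the higher ones, and in GABAergic nuclei the pplCoA points are, for both transcripts.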

How the data were processed

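Nuclei from pooled plCoA tissue were sorted by fluorescence and sequenced with a 10x 3' kit. The authors deposited raw UMI counts per gene and barcode, made with Cell Ranger (5.0.0 and mm10 in the submitters' processing notes), with intronic reads counted. No column was left unmapped. Barcodes with at least 1000 genes were kept (52201), UMI counts over 5 MADs above the median and mitochondrial or ribosomal shares over 5 IQRs above the upper quartile were left out (50523 remained), and 4120 scored as doublets (1% per 1000 nuclei) were removed, which left 46403. Clusters (scanpy 1.11.5; 5000 variable genes, 50 components, 15 neighbours) were named from marker lists, and 128 nuclei stayed unnamed. Classes under 50 nuclei were not described.

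Counts were summed per replicate and class, so the replicate was the unit, and tested as aplCoA against pplCoA with edgeR 4.0.16 (quasi-likelihood, TMM, filterByExpr; adjusted p under 0.05 over all genes tested). Differences between classes used a class by domain term with a term for each replicate. On simulated counts for 18559 genes in glutamatergic nuclei, 74% of 100 genes changed by 1 and 97% of 100 changed by 2 (log2) were recovered. Similarity used log2(CPM + 10) and genes reaching 20 CPM. Co-detection needed 20 nuclei per side.

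Named were the 10 transcripts, for each the 3 coding subtype genes of highest ratio and the 3 most similar genes, and annotated neighbours. Results on 1 gene are not reported here. The transcripts and lists were chosen with earlier results of these data known. No p-value is given for the transcripts between domains in glutamatergic nuclei, or for differences built on them, since these values chose them. Levels per class and domain were open to that choice too, so p-values of the transcripts in other classes are descriptions. Loci and transcripts are from GENCODE (GRCm38), and start windows from RefSeq. Alternatives covered the likelihood ratio test, DESeq2 1.42.0, other scaling and filters, the replicate block, doublets, thinning and each replicate left out. The tests in OPCs and astrocytes, the tests of differences between classes and the fit without TMM were chosen after seeing the data. Poisson intervals cover counting error only.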

Additional observations from a re-analysis of the deposited data

Results flagged for a closer look

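Gm45321 and Gm45323 were set apart because their domain effects in glutamatergic nuclei and in other cell classes differed in an edgeR fit of the difference. The glutamatergic effects were among the values that chose the transcripts, so passing that fit is no support and the difference is a description. The effect (log2, aplCoA over pplCoA) in GABAergic minus that in glutamatergic nuclei was -1.82 for Gm45321 and -2.00 for Gm45323. In OPCs minus glutamatergic nuclei it was -1.89 for Gm45321 and -1.77 for Gm45323. Both transcripts were higher in aplCoA in all 3 glutamatergic replicates and lower there in all 3 GABAergic ones. Inside single glutamatergic clusters the direction seen over all glutamatergic nuclei was not shared evenly, as given above. No GABAergic cluster was tested between domains. In OPCs alone Gm45323 did not pass (-0.24, edgeR adjusted p = 0.586), so that most of its difference there is the glutamatergic effect. GABAergic nuclei and OPCs share no nuclei with the glutamatergic class, though they come from the same pools.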

How the results depend on the processing

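The count of transcripts called between domains in glutamatergic nuclei was 8 under 12 of the settings that are not a left-out replicate, and 8 to 9 with a replicate left out. The count of transcripts highest in glutamatergic nuclei was 6 under every setting run, and the count called between domains in GABAergic nuclei was 2 under every setting run. Over all genes 3079 calls became 2017 with a 10% detection minimum, 852 when a fold of 1.5 or more and an adjusted p under 0.01 were asked, and 1244 to 4191 with a replicate left out. Within clusters the count of 0 became 9 by the likelihood ratio test, 1 with domain genes kept in the clustering, and 0 to 10 with a replicate left out, 10 being without pplCoA replicate 1. In OPCs 0 to 1 was called with a replicate left out, in astrocytes 1 with the replicate block, and 4 transcripts were tied when thinned to 5000 UMIs. Where no share of all genes is given for a setting, nothing is read from its count of transcripts. The causes were not tested.

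Gm2164 in glutamatergic nuclei ranged from -0.203 to 0.462 with a replicate left out (-0.133 without aplCoA replicate 2, -0.0641 without pplCoA replicate 2, -0.203 without pplCoA replicate 3) and was -0.0188 with library 2 of aplCoA replicate 1 alone. Gm49171 in GABAergic nuclei ranged from -0.305 to 0.093, the highest value being without aplCoA replicate 1. None of these passed the test before or after.

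Replicates of the domains with the same number correlated at 0.0956, 0.0130 and 0.0740 in their deviations, and those with different numbers at -0.125 to 0.0798. Of the 6, 3 correlated best with their own. These values cannot tell whether equal numbers mean more than a label. With the replicate block 3032 genes and 8 of the transcripts were called in glutamatergic nuclei. Depth limits 9130024F11Rik most, with 1367 UMIs in glutamatergic nuclei.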
